A study of Mus musculus with 24 samples.

Results

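Human CAR knock-in mice (hCAR-TG, C57BL/6) received the CAR agonist CITCO as newborns, and their livers at postnatal day 5 (3 libraries) were compared with livers of hCAR-TG adults at day 60 given corn oil only (3 libraries). These 6 libraries, chosen by their titles, are 6 of the 24 in the series. Newborn hCAR-TG mice given corn oil (day 5, 3 libraries) served to tell which genes moved with CITCO, and wild type mice supplied a second contrast, newborns given TCPOBOP (day 5, 3 libraries) against adults given corn oil (day 60, 3 libraries). The comparison asks which genes the ligand brought to the level of the adult without ligand, which went past it and which stayed away from it. Age and ligand differ together in it, so a difference cannot be given to either one from these 6 libraries alone. All hCAR-TG groups carry the human receptor. The labels call the line both a knock-in and TG, and the promoter that drives the human gene, the dose, the route and the interval before collection are not stated in the labels. Replicates are not stated to be separate animals, so p-values measure only the spread between these samples, which may be technical.

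CAR, the constitutive androstane receptor (gene Nr1i3), is a nuclear receptor of hepatocytes that pairs with RXR and switches on genes for the uptake, oxidation, conjugation and export of drugs and bile products. The best known target is Cyp2b10, a cytochrome P450 gene. CITCO is an agonist of human CAR and TCPOBOP of mouse CAR. Most drug-processing genes are weakly expressed in the liver at birth and reach their adult level in the weeks that follow.

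The libraries were of polyadenylated liver RNA, and the values are FPKM, which scales fragments by transcript length and library size. FPKM totals per library were 451546 to 502499, and the read depth is unknown. Hepatocyte markers summed to 114923 to 119387 FPKM in newborn CITCO livers, 124386 to 140662 in newborn corn oil livers and 75008 to 83980.2 in adult corn oil livers, so the tissue label holds. Some libraries stood apart. CITCO newborn replicate 1 held 502 FPKM of pancreatic acinar transcripts, against 7.80 and 11.6 in the other two CITCO newborns and 14.6 to 20.2 in adults. Newborn corn oil replicate 3 held 311 FPKM of intestinal transcripts, against 172 and 216 in its group. The number that closes the read file names (its meaning is not stated) was 5 in every newborn CITCO library and 2 in every adult corn oil library, so whatever it marks cannot be told apart from the comparison.

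A gene was called when its limma adjusted p on log2(FPKM + 1) was under 0.05. Of 12282 genes tested, 8761 (71.3%) were called between newborn CITCO and adult corn oil livers, 6042 (49.2%) higher and 2719 (22.1%) lower in the newborns. The 2 groups did not overlap for 10009 genes (81.5%; 55.3% higher and 26.1% lower with CITCO). A change of at least 2-fold was called for 16.5% of the genes and reached by 1483 of the higher genes (12.1%) and 540 of the lower ones (4.40%). After rescaling the libraries by median of ratios the median difference of all genes moved to 0.02 from 0.21 on the log2 scale, and 52.4% instead of 69.0% of the calls were higher in the newborns. Because most genes were called, the position of a gene was read from the 95% interval of its log2 difference. A gene is near the adult level when that interval lies within 1 (2-fold) on either side of 0, past it when called higher and not near, short of it when called lower and not near, and otherwise undecided. Past and short thus name the side of the adult level, and not a crossing of it. Over all genes, 9249 (75.3%) were near, 2102 (17.1%) past, 803 (6.54%) short and 128 (1.04%) undecided.

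The mouse receptor gene itself was past the adult level. Nr1i3 (chr1:171213970-171218845, mm10) had 28.6, 34.0 and 33.4 FPKM in newborn CITCO livers, 18.7, 20.4 and 27.7 FPKM in newborn corn oil livers, and 6.94, 9.23 and 9.93 FPKM in adult corn oil livers. All CITCO newborns were above all adults (log2 difference 1.78 ± 0.18, SE; limma adjusted p = 3.12e-08). Wild type adults given corn oil had 53.4, 74.2 and 76.9 FPKM. Reads of the human receptor need not align to mouse Nr1i3, so these values need not measure the receptor that CITCO binds. Nr1i2, which encodes the related receptor PXR, had 25.1, 24.7 and 25.5 FPKM with CITCO and 23.2, 23.6 and 21.3 FPKM in the adults, and was not called (limma adjusted p = 0.262).

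Cyp2b10 (chr7:25897658-25926624) went past the adult level. It stood at 413, 426 and 467 FPKM in newborn CITCO livers, at 5.22, 1.22 and 1.98 FPKM in newborn corn oil livers, and at 241, 208 and 227 FPKM in adult corn oil livers. The groups did not overlap, and the CITCO newborns averaged 193% of the adult mean while the newborns given corn oil averaged 1.25% (CITCO newborns minus adults, log2 difference 0.95 ± 0.26, SE; limma adjusted p = 0.00277). The adult level it passed is itself high for adults given corn oil: wild type adults given corn oil had 9.31, 11.9 and 17.4 FPKM of Cyp2b10. Adult hCAR-TG mice given CITCO, outside the comparison, had 1223, 1197 and 1259 FPKM, above the CITCO newborns.

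Other P450 genes that moved with CITCO ended in different places. Cyp2c55 (chr19:39007019-39042687) also went past, with 31.0, 28.0 and 34.7 FPKM in newborn CITCO livers, 2.80, 3.95 and 4.99 in newborn corn oil livers, and 12.1, 10.6 and 15.1 in adult corn oil livers (CITCO newborns minus adults 1.25 ± 0.16 log2, limma adjusted p = 8.29e-07). Cyp1a2 (chr9:57676937-57683655), the caffeine-oxidising P450 of liver, stopped at the adult level: it had 383, 384 and 399 FPKM with CITCO, 65.9, 62.3 and 51.7 in newborn corn oil livers, and 399, 386 and 425 in the adults. The CITCO newborns and adults overlapped for Cyp1a2, and the 95% interval of the log2 difference was -0.30 to 0.20. After rescaling the difference was -0.27 and was called. Cyp2c29 (chr19:39287085-39330713), the most abundant Cyp2c transcript of these adults among the genes tested, stayed short with a log2 rise of 6.10 over newborn corn oil livers, next to 6.98 for Cyp2b10. It had 348, 389 and 492 FPKM with CITCO and 6.19, 2.13 and 8.28 in newborn corn oil livers, and adult corn oil livers held 2276, 2379 and 2614 FPKM. The CITCO newborns averaged 16.9% of the adult mean of Cyp2c29 (-2.57 ± 0.39 log2, limma adjusted p = 1.08e-05).

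The stretches around the start of these 4 genes are shown because the genes share a response to CITCO and differ in where they ended. Each runs 5′ to 3′ on the gene's strand, from 250 bases before to 50 bases after the start (RefSeq, GRCm38.p6, the assembly called mm10), and capitals mark TATAAA on that strand and the nuclear receptor half-sites AGGTCA and AGTTCA on either strand. Past the adult level, Cyp2b10 lies at chr7:25897408-25897707 (+ strand) and Cyp2c55 at chr19:39006769-39007068 (+ strand).
Cyp2b10: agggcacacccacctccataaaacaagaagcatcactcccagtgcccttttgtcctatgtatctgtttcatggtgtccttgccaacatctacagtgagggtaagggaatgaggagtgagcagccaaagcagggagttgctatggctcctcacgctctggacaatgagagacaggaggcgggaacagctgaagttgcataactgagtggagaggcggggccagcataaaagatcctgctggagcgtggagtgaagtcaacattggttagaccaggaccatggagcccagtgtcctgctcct
Cyp2c55: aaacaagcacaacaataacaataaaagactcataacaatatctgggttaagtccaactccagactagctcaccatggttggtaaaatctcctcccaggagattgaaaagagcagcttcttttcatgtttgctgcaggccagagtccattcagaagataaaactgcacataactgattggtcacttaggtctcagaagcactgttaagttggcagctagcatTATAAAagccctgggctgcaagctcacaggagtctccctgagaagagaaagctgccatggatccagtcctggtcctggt
Near the adult level is Cyp1a2 at chr9:57683606-57683905 (- strand), and short of it Cyp2c29 at chr19:39286835-39287134 (+ strand).
Cyp1a2: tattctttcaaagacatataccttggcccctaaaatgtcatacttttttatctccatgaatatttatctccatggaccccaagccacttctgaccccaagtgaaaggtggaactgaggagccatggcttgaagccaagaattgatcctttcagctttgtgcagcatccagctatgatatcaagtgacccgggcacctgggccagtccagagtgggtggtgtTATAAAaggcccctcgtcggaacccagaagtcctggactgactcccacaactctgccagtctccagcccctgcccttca
Cyp2c29: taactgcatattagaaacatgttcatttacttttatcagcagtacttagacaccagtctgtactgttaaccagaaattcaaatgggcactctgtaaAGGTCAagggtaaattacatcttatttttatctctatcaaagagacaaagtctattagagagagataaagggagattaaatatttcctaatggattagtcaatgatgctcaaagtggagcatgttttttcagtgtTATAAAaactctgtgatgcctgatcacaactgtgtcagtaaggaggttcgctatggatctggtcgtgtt
Of the 4, only Cyp2c29 held a half-site in this window, and the Cyp2b10 window held no capital at all. The phenobarbital-responsive enhancer of Cyp2b genes, where CAR is known to bind, lies further upstream than these windows reach. Among 27025 promoters of the same length, 1 per gene, 4335 (16%) held AGGTCA or its reverse complement TGACCT, 3790 (14.0%) AGTTCA or TGAACT, and 3827 (14.2%) TATAAA or TTTATA. Of the CITCO-raised genes described next, 55 had an entry. AGGTCA or TGACCT was in 5 of 18 promoters of genes near the adult level, 1 of 18 past it and 7 of 16 short of it. It was in 0 of 3 promoters of undecided genes, and over all 55 in 23.6%. AGTTCA or TGAACT was in 1 of 18, 3 of 18, 3 of 16 and 1 of 3 in the same order, and over all 55 in 14.5%. TATAAA or TTTATA was in 4 of 18, 4 of 18, 7 of 16 and 0 of 3, and over all 55 in 27.3%. None of these shares was tested. A match is a description of the letters in this window and no binding was measured.

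CITCO-raised genes were those called at least 2-fold higher in newborn CITCO than in newborn corn oil livers, 70 of 12282 (0.570%). At the edge of that choice, Mrap and Raet1e were just inside with log2 rises of 1.0 and Cbr1 just outside with 0.99. Against the adult corn oil level, 23 of the 70 were near, 22 past, 22 short and 3 undecided (over all genes 75.3%, 17.1%, 6.54% and 1.04%). The CITCO libraries enter both the choice and the position, so these counts describe the 70 genes and carry no test. Of the 70, 29 are on the lists of drug-processing genes and 24 on the list of CAR targets known from adult liver. In 49 of the 70, adult corn oil livers were called higher than newborn corn oil livers. That contrast called 8788 of all genes (71.6%), 24.3% higher and 47.3% lower in adults. Of these 49, the CITCO newborns were near the adult level for 23, short of it for 22, past it for 2 (Cyp2b10 and Cyp2c55) and undecided for 2 (Cyp2c50 and Cyp2c37). In 16 of the 70 the adults were already lower than newborns given corn oil. A rise of at least 2-fold over those newborns leaves such a gene no way to be near or short. All 16 were past the adult level with CITCO, which follows from the choice. The other 5 (Alas1, Raet1d, Raet1e, Ren1 and 1700067K01Rik) were not called between adult and newborn corn oil livers.

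**Figure D1:**
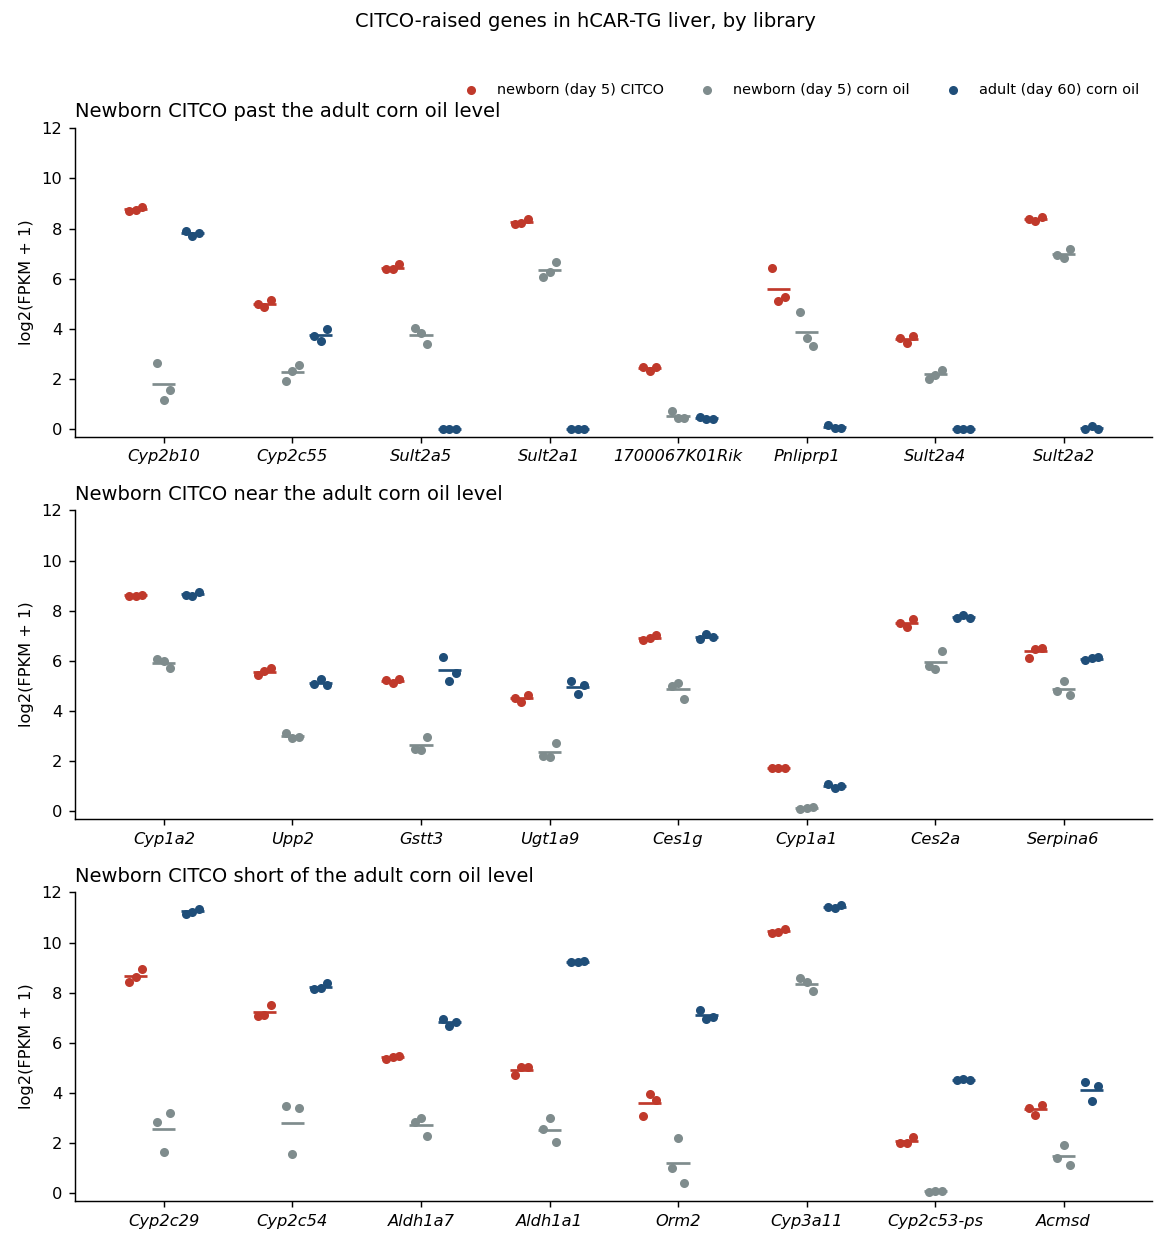
Levels, as log2(FPKM + 1), of the 8 CITCO-raised genes with the largest CITCO response in each position class. Each point is 1 library and each short bar a group mean. In the top panel only Cyp2b10 and Cyp2c55 have grey points (newborn corn oil) below the blue ones (adult corn oil) by a wide margin, while the Sult2a genes and Pnliprp1 have blue points near 0. In the middle panel red and blue lie close together, and in the bottom panel red lies between grey and blue.

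The 23 genes near the adult level covered several steps of drug handling and of amino acid metabolism. Ces1g, a carboxylesterase gene, had 112, 120.3 and 128 FPKM in newborn CITCO livers, 30.8, 34.1 and 21.6 FPKM in newborn corn oil livers, and 117, 132 and 124 FPKM in adult corn oil livers. Ces2a, another carboxylesterase gene, had 182, 164 and 203 FPKM with CITCO and a mean of 62.3 without it, next to 209, 229 and 208 FPKM in the adults. For Ces1g the CITCO newborns and adults overlapped, and for Ces2a every CITCO newborn was below every adult, although the difference was not called (-0.24 ± 0.12 log2, limma adjusted p = 0.0891). It was called after rescaling (-0.46) and with the 6 compared libraries fitted alone. The conjugating genes Gstt3 (glutathione), Ugt1a9 (glucuronic acid) and Sult1d1 (sulfate) averaged 71.5%, 71.2% and 101% of the adult mean with CITCO. In newborn corn oil livers Gstt3 averaged 10.5%, Ugt1a9 14.0% and Sult1d1 50.4% of the adult mean. Ugt1a9 shares exons with the other Ugt1a genes, which leaves its share of the reads uncertain.

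Of the 8 CITCO-raised genes of the urea cycle and amino acid breakdown, 4 were near the adult level (Arg1, Asl, Bhmt and Cth) and 4 short of it (Ass1, Gnmt, Sds and Tdo2). Asl, argininosuccinate lyase, had 185, 203 and 213 FPKM with CITCO, 75.5, 91.7 and 85.0 in newborn corn oil livers, and 199.6, 188 and 184 in adult corn oil livers. Bhmt, betaine-homocysteine methyltransferase, had 2057, 2190.3 and 2200.2 FPKM with CITCO, 985, 1012 and 879 without it, and 1861, 1714 and 1762 in the adults. Neither gene was called different from the adults (log2 difference 0.07 ± 0.09 for Asl and 0.27 ± 0.16 for Bhmt). For Bhmt every CITCO newborn was nevertheless above every adult, while for Asl the groups overlapped. Cth, which makes cysteine, and Arg1, the arginase of the urea cycle, were called below the adults (-0.21 ± 0.08 and -0.84 ± 0.07 log2). Arg1 stood at 55.6% of the adult mean, and was short of it after rescaling and without CITCO replicate 2, CITCO replicate 3, adult replicate 2 or adult replicate 3. Upp2 (uridine phosphorylase) was near with an interval of 0.01 to 0.87, and Serpina6, which encodes the corticosteroid carrier of blood, at 0.28 ± 0.19. The P450 gene Cyp1a1 was near only on this scale: it had 2.35, 2.35 and 2.28 FPKM with CITCO, against 1.13, 0.931 and 1.04 FPKM in the adults, and the pseudocount of 1 shrinks so low a gene. Of the 23 genes, 12 were not called between CITCO newborns and adults, 5 were called higher and 6 lower. Under at least 1 alternative fit 11 of the 23 left the class, among them Got1 (upper bound 1.0), Arg1 (lower bound -0.99) and Gstt3 (lower bound -0.98), which sit at its edge. That count leaves out the narrower bound of 1.5-fold, under which only 8 genes were near.

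**Figure D2:**
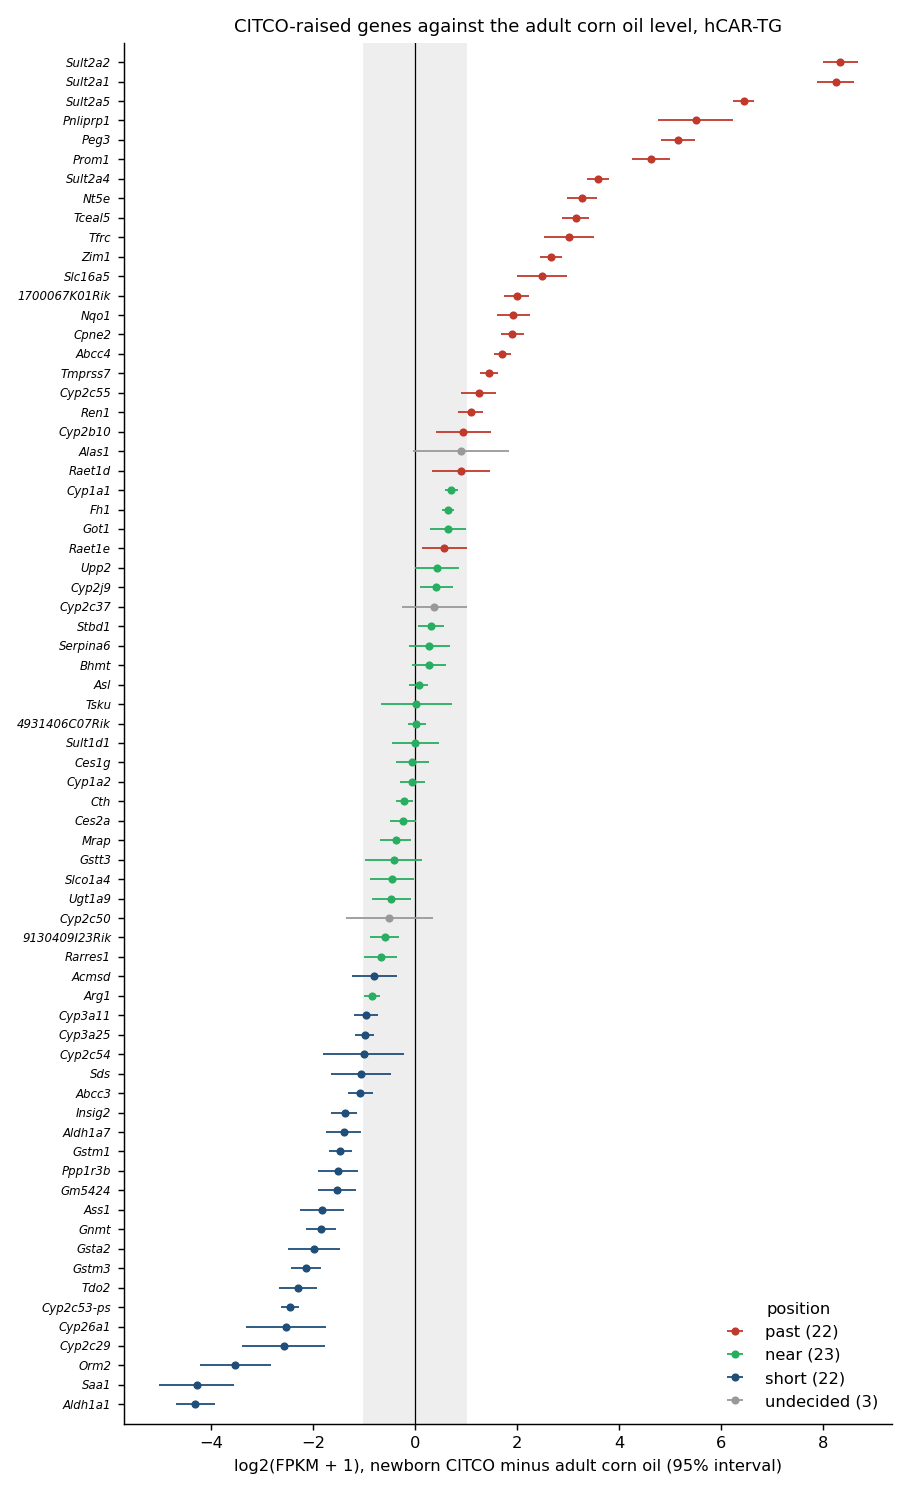
Newborn CITCO minus adult corn oil, as log2(FPKM + 1) with its 95% interval, for the 70 CITCO-raised genes in order of the difference. The grey band marks 2-fold on either side of the adult level. The values run between -4.30 for Aldh1a1 and 8.33 for Sult2a2, and the whole interval lies inside the band for 23 genes.

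The 22 genes past the adult level were, apart from Cyp2b10 and Cyp2c55, mostly genes that these adult livers hardly expressed. Sult2a1, a sulfotransferase gene for hydroxysteroids and bile acids, had 287, 294 and 329 FPKM in newborn CITCO livers, 65.4, 77.1 and 99.6 in newborn corn oil livers, and was listed at 0, 0 and 0.0175 FPKM in adult corn oil livers. Sult2a2, Sult2a4 and Sult2a5 had the same order of groups, while Sult2a7, which was not among the 70, was short of the adult level. Sult2a5 held 82.1, 82.5 and 94.7 FPKM with CITCO and 15.3, 13.4 and 9.65 without it, next to 0, 0.0131 and 0 FPKM in the adults. Sult2a1 and Sult2a2 are also on the list of female-biased liver genes, and the part of sex in their difference was not tested. The Sult2a genes are close relatives, so reads may be split among them. For these 4 genes newborns without ligand were already above the adult, and those with CITCO were farther from it. The same held for Peg3 and Zim1, neighbouring imprinted genes, with log2 differences to the adult of 5.16 ± 0.16 and 2.66 ± 0.10. Nqo1, a quinone reductase gene, had 14.4, 13.2 and 15.7 FPKM with CITCO, 5.03, 5.34 and 5.33 without it, and 3.66, 3.01 and 2.58 in the adults. Abcc4, an efflux pump gene of the sinusoidal membrane, had 4.24, 4.17 and 4.70 FPKM with CITCO, 1.25, 1.09 and 1.23 without it, and 0.592, 0.669 and 0.648 in the adults. In both genes the 3 groups were separate, with the CITCO newborns highest. Tfrc, the transferrin receptor gene, had 79.9, 81.4 and 78.1 FPKM with CITCO, 28.5, 55.0 and 27.1 without it, and 10.7, 9.18 and 7.32 in the adults. Summed erythroid markers were 9821 to 11177 FPKM in CITCO newborns, 13963 to 17284 in newborn corn oil livers and 1386 to 1842 in adults. The part of erythroid transcripts in the Tfrc difference was not tested. Pnliprp1, which encodes a pancreatic lipase-related protein, had 84.9, 33.5 and 37.5 FPKM with CITCO and 0.115, 0.0476 and 0.0464 FPKM in adults. The highest Pnliprp1 library is the one with pancreatic transcripts, and without it the difference was 5.09 instead of 5.50 on the log2 scale.

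The 22 genes short of the adult level had all been raised by CITCO at least 2-fold and still lay below every adult library. Cyp3a11, whose enzyme oxidises many drugs, had 1331, 1377 and 1505 FPKM in newborn CITCO livers, 379, 344 and 271 FPKM in newborn corn oil livers, and 2742, 2624 and 2855 FPKM in adult corn oil livers. That is 51.3% of the adult mean with CITCO and 12.1% without it. Cyp3a25 reached 50.3% and Cyp2c54 50.1%. Cyp2c54 moved to undecided without CITCO replicate 1, CITCO replicate 2 or adult replicate 3 (log2 difference -0.92, -0.95 and -0.93 instead of -1.0). Farther from the adult was Aldh1a1, the retinal dehydrogenase gene, with 25.1, 32.3 and 32.0 FPKM with CITCO, 4.92, 7.0 and 3.09 without it, and 593, 599 and 615 in the adults. The CITCO newborns held 4.95% of the adult mean of Aldh1a1, against 37.2% for its neighbour Aldh1a7. The glutathione transferase genes Gstm1, Gstm3 and Gsta2 reached 36.3%, 22.2% and 21.9% of the adult mean, and the efflux pump gene Abcc3 46.7%. Outside drug metabolism, Ass1 of the urea cycle (-1.83 ± 0.21 log2), Tdo2 of tryptophan breakdown (-2.29 ± 0.18), Gnmt of methionine metabolism (-1.84 ± 0.14) and the acute phase genes Saa1 (-4.28 ± 0.35) and Orm2 (-3.52 ± 0.33) were short. Reads of the Cyp2c, Cyp3a, Gstm and Gsta relatives can be shared, so the level of a single member is uncertain. The same goes for Ass1 and Gm5424, which overlap on the genome and are each counted among the 22. Gm5424 averaged 533 FPKM with CITCO and 1558 FPKM in the adults, against 64.4 and 233 FPKM for Ass1.

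The 3 undecided genes had wide intervals. Cyp2c50 had 449, 475 and 580 FPKM with CITCO, against 664, 692 and 768 FPKM in adults, and Cyp2c37 had 312, 319 and 358 against 241, 238 and 282. Neither pair of groups overlapped, and when the 6 compared libraries were fitted alone both genes were called and near the adult level. Without newborn corn oil replicate 2 both were near as well. Newborn corn oil replicate 2, which enters the shared error of the main model, held 5.19 FPKM of Cyp2c50 and the other two of its group 31.3 and 29.4. Alas1, the rate-limiting enzyme of haem synthesis, had 65.2, 67.8 and 69.5 FPKM with CITCO, 17.3, 21.2 and 19.4 without it, and 118, 20.8 and 17.8 in the adults. Adult replicate 1 decides this gene: without it Alas1 was past the adult level with a log2 difference of 1.76, instead of 0.91.

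Seen from the adult side, few of the genes that rise with age were brought to the adult level. Adult corn oil livers were called at least 2-fold above newborn corn oil livers for 630 of 12282 genes (5.13%). The CITCO newborns were near the adult level for 48 of the 630 (7.62%), past it for 2 (0.317%), short for 577 (91.6%) and undecided for 3. Of the 48, 45 were called higher with CITCO than with corn oil in newborns, and of the 577, 106 were called higher and 35 lower (background over all genes 8.27% higher and 8.82% lower). In the other direction, adult corn oil livers were called at least 2-fold below newborn corn oil livers for 1634 genes (13.3%, and 18.4% in both directions together). The CITCO newborns were near the adult level for 99 of these (6.06%), of which 90 were called lower with CITCO. They were still above it, the class named past, for 1522 (93.1%). Of the 1522, 64 were called higher with CITCO and 269 lower (background 8.27% and 8.82%). The adult corn oil libraries enter both the choice of these genes and their position, and the newborn corn oil libraries enter both the choice and the CITCO calls, so the counts are a description with no test.

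Across the drug-processing genes the CITCO newborns were more often below than above the adults. Of 200 tested genes on 7 lists, 107 were lower and 46 higher than adult corn oil (background over all genes 22.1% lower and 49.2% higher), with a median log2 difference of -0.46, against 0.21 over all genes. The same median for newborn corn oil minus adult corn oil was -0.84. With CITCO against corn oil in newborns, 66 of the 200 were called higher and 12 lower (background 8.27% and 8.82%, 17.1% together). Their positions were 82 near, 35 past, 81 short and 2 undecided. Over all genes 75.3% were near, 17.1% past, 6.54% short and 1.04% undecided, so the share past was close to the background. The 45 CAR targets known from adult liver, which share members with these lists, had 10 higher, 21 lower and 14 not called, with a median of -0.42, while newborn corn oil minus adult corn oil had a median of -1.55 for them. By position, 16 of the 45 were near, 9 past, 17 short and 3 undecided.

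**Figure D3:**
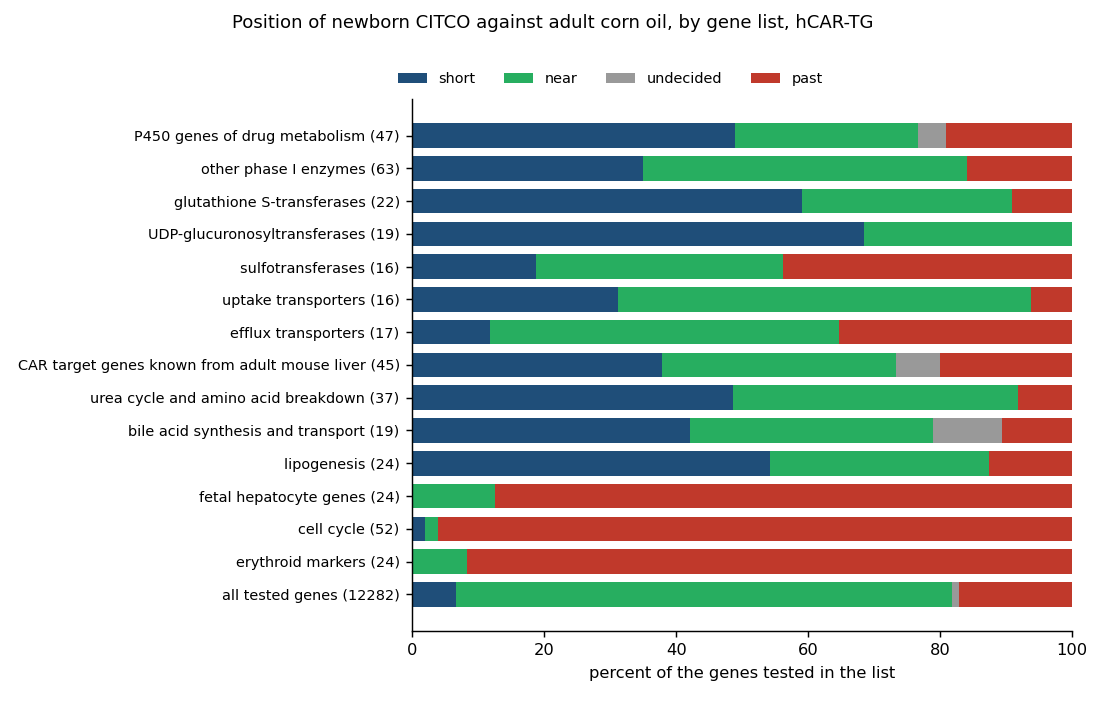
Share of the tested genes of each list (number in brackets) whose newborn CITCO level was short of, near, undecided against or past the adult corn oil level. Of the glucuronosyltransferase genes 13 of 19 were short and 0 past, and of the sulfotransferase genes 7 of 16 were past. Over all tested genes 75.3% were near, 17.1% past and 6.54% short.

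Among the P450 genes of drug metabolism 26 of 47 were lower, 15 higher and 6 not called, and 13 were near the adult level. Over all genes 22.1% were lower, 49.2% higher and 75.3% near. Of the 23 P450 genes that were short, 6 were called higher with CITCO than with corn oil in newborns, 1 lower, and 16 were not called. The background of those calls is 8.27% higher and 8.82% lower. Cyp2e1, the ethanol-oxidising P450, had 1076, 1048 and 1056 FPKM in newborn CITCO livers, 1235, 1134 and 1093 in newborn corn oil livers, and 2225, 2718 and 2455 in adult corn oil livers. Cyp2a5, the coumarin hydroxylase gene and a CAR target in adults, had 12.5, 13.4 and 16.9 FPKM with CITCO, 10.5, 11.7 and 14.5 without it, and 155, 128 and 153 in the adults. Neither Cyp2e1 nor Cyp2a5 was called between the newborn groups (log2 -0.12 and 0.21). Of the Cyp2d genes, Cyp2d9, Cyp2d10, Cyp2d13 and Cyp2d40 were at 21.2%, 39.5%, 11.8% and 20.7% of the adult mean. On the other side, Cyp2b9, a female-biased P450 gene, had 137, 145 and 144 FPKM with CITCO and averaged 149 FPKM in newborn corn oil livers, next to 1.19, 1.25 and 1.36 FPKM in the adults. Cyp2b13 and Cyp2a22 were also past (log2 2.05 ± 0.19 and 2.59 ± 0.12). Por, the reductase that supplies P450 enzymes with electrons, had 179, 190.3 and 196 FPKM with CITCO, 107, 87.6 and 149.9 without it, and 60.0, 60.0 and 60.1 in the adults.

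Other phase I genes were lower in 33 of 63 cases and higher in 12 (background 22.1% and 49.2%), with a median of -0.42. Ephx1, microsomal epoxide hydrolase, was near with CITCO at 109.6% of the adult mean, as were Ces1d at 108% and Adh5 at 69.8%. Genes of the mature liver that CITCO left behind were Ces3b (2.03 FPKM in CITCO newborns, 288 FPKM in adults), Adh4 (2.44 and 119 FPKM in the same order), Ces1f (5.67 and 189.6 FPKM) and Aox3 (37.3 and 155 FPKM). For Ces3b and Ces1f the CITCO newborns were also called lower than newborn corn oil livers (log2 -0.62 and -0.68), and so farther from the adults. Past the adult level were Cbr1, carbonyl reductase (206 and 47.5 FPKM, log2 2.09 ± 0.12), Akr1b7 (116 and 0.822 FPKM) and Akr1c18 (46.0 and 0.0996 FPKM).

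Of 22 glutathione transferase genes 15 were lower and 3 higher (median -1.19), and of 19 glucuronosyltransferase genes and their sugar suppliers 16 were lower and 0 higher (median -1.26), against a background of 22.1% lower and 49.2% higher. Gstp1, which CITCO did not move in newborns, had 217, 209 and 222 FPKM with CITCO, against 825, 923 and 883 FPKM in adults. Ugt1a1, the bilirubin-conjugating gene, was near the adult level in both newborn groups, with 157, 163 and 166 FPKM with CITCO, 148, 139 and 126 without it, and 162, 151 and 162 in the adults. Ugt2b1 was called higher with CITCO and still held 21.1% of the adult mean. Of 16 sulfotransferase genes 7 were higher and 3 lower (median 0.09, and -0.08 after rescaling), shares close to the background, and 6 of the 7 higher ones were Sult2a genes. The remaining one, Sult1c2, had 28.1 FPKM in CITCO newborns and 2.07 FPKM in adults. Sult5a1 (2.56 and 15.7 FPKM) and Sult1b1 (4.10 and 10.5 FPKM) were short.

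Of 16 uptake transporter genes 10 were lower and 1 higher (median -0.45, background 22.1% lower and 49.2% higher). Slco1a1, a male-biased organic anion carrier gene, had 0.177, 0.345 and 0.321 FPKM with CITCO, against 77.1, 103 and 98.6 FPKM in adults. Its relative Slco1a4, a CAR target, was near at 69.8% of the adult mean, and was short after rescaling and without CITCO replicate 3 or adult replicate 1. Of 17 efflux transporter genes 8 were higher and 4 lower (median 0.33), shares close to that background. After rescaling 7 were higher and 7 lower (median 0.11), while over all genes 4453 were higher and 4053 lower (median 0.02). Abcb11, the bile salt export pump, was short with 66.7, 55.3 and 60.9 FPKM with CITCO, against 211, 163 and 172 FPKM in adults. Abcg2 and Abcc2, pumps of the bile canaliculus, were near at 89.3% and 84.6% of the adult mean.

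At the 2-fold threshold fewer genes were lowered than raised by CITCO. CITCO-lowered genes, called at least 2-fold lower in newborn CITCO than in newborn corn oil livers, numbered 46 (0.375%, and 0.944% together with the raised ones), with 30 near the adult level (over all genes 75.3% were near), 8 past, 4 short and 4 undecided. Many of the near ones are genes of the intestine, which were at or near 0 in the adults. Lypd8 had 0.233, 0.0922 and 0 FPKM with CITCO, 6.28, 10.8 and 16.4 without it, and 0 in all adults, and the Paneth cell gene Defa24 had 0.495, 0.0845 and 0 FPKM (to 3 decimals) with CITCO, 3.03, 5.95 and 14.5 without it, and 0 in all adults. The newborn corn oil library with the most intestinal transcripts, replicate 3, was the highest in both. Intestinal markers summed to 137 to 157 FPKM with CITCO, 172 to 311 without it and 68.3 to 82.7 in the adults, and their part in these falls was not tested. The 4 short genes were Hamp, 8430408G22Rik, Nr1d1 and Cyp4f14, for which the newborns given CITCO were on average farther from the adult than those given corn oil. Hamp, which encodes the iron hormone hepcidin, had 9.48, 2.76 and 3.19 FPKM with CITCO, 277, 23.7 and 6.28 without it, and 946, 1439 and 932 in the adults. The newborn groups overlapped for Hamp, and newborn corn oil replicate 1 stood far above the rest of its group. The 8 past genes fell with CITCO and were still above the adult level. Among them Hsd3b1 (a steroid dehydrogenase gene) had 17.8, 16 and 19.3 FPKM with CITCO. Without CITCO Hsd3b1 had 36.2, 36.9 and 55.7 FPKM, and the adults had 0.383, 0.294 and 0.467.

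In the metabolic lists outside drug handling, the share of genes near the adult level lay below the 75.3% of all genes. The background for the other counts is 22.1% lower, 49.2% higher, 17.1% past and 6.54% short over all genes. Of 37 urea cycle and amino acid breakdown genes 27 were lower and 5 higher than in adults (median -0.84), with 16 near, 3 past and 18 short. Here 28 of the 37 were called higher with CITCO in newborns (background 8.27%), and the median without ligand was -1.21. Cps1, the entry enzyme of the urea cycle, had 396, 396 and 423 FPKM in newborn CITCO livers, 227, 276 and 207 in newborn corn oil livers, and 923, 794 and 724 in adult corn oil livers. Mat1a, which makes the methyl donor, went past, with 1150, 1137 and 1212 FPKM with CITCO, 654, 609 and 754 without it, and 569.7, 583 and 513 in the adults. Of 19 bile acid genes 13 were lower and 3 higher. Cyp27a1 of the acidic pathway had 28.6, 31.3 and 32.2 FPKM with CITCO, against 225, 241 and 238 FPKM in the adults, and Cyp7a1, the rate-limiting enzyme of bile acid synthesis, was undecided (0.41 log2, limma adjusted p = 0.489). Lipogenesis had 17 of 24 genes lower and 5 higher. Its desaturase gene Scd1 had 2.22, 2.04 and 1.56 FPKM with CITCO, against 1067, 1385 and 804 FPKM in the adults. Cholesterol synthesis had 18 of 25 lower and 3 higher, and steroid hormone metabolism 11 of 17 lower and 2 higher. Fatty acid oxidation had 25 of 42 higher and 9 lower (18 and 10 after rescaling), and gluconeogenesis and glycolysis 17 of 31 higher and 10 lower (14 and 13 after rescaling). In both lists the share of higher genes before rescaling was not far above the 49.2% of all genes. After rescaling 4453 of all genes were higher and 4053 lower. Near the adult level were 7 of the 19 bile acid genes, 8 of the 24 lipogenesis genes, 12 of the 25 cholesterol genes, 9 of the 17 steroid genes, 20 of the 42 fatty acid oxidation genes and 15 of the 31 genes of gluconeogenesis and glycolysis.

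Fetal and cell cycle genes were mostly higher than in adults, and urinary protein genes lower. Over all genes 49.2% were higher and 22.1% lower. All 24 tested fetal hepatocyte genes except 3 were higher than in adults (21 higher, 0 lower, median 3.41). After rescaling 21 were higher and 2 lower, while over all genes 4453 were higher and 4053 lower. Afp had 5864, 5518 and 4685 FPKM in newborn CITCO livers, against 0.783, 0.935 and 0.821 in the adults, and the imprinted growth genes H19 and Igf2 were the other members with differences above 10 on the log2 scale (12.54 ± 0.13 and 10.23 ± 0.09). With CITCO against corn oil in newborns, 11 of the 24 were called lower and 3 higher (background 8.82% and 8.27%). Afp (-0.59 log2) and Igf2 (-0.34) were among those called lower, and H19 was not called (-0.15). Of 52 cell cycle genes 51 were higher and 1 lower (median 2.38), for example Cdk1 with 8.93, 9.07 and 8.96 FPKM, against 0.238, 0.265 and 0.176 FPKM in adults. All 19 tested major urinary protein genes were lower (median -9.40). Their sum was 0.683, 33.9 and 0.527 FPKM with CITCO, so replicate 2 stood apart, next to 24199, 21861 and 30727 FPKM in the adults. All 19 male-biased genes were lower and 14 of 19 female-biased genes higher, with 2 lower. Hao2, a female-biased oxidase gene, had 48.1, 48.4 and 49.1 FPKM with CITCO, against a mean of 0.0602 FPKM in adults.

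Most markers of blood-forming cells, macrophages, stellate cells and endothelium were higher in the CITCO newborns than in adults. Among erythroid markers 23 of 24 were higher and 0 lower, among neutrophil markers 19 of 19, among megakaryocyte and progenitor markers 11 of 11, and among lymphocyte markers 14 of 14 (background 49.2%). Slc4a1, the anion exchanger of red cells, had 39.0, 42.7 and 37.5 FPKM with CITCO, against 0.0255, 0.0420 and 0.0361 in adults. Kupffer cell and macrophage markers were higher in 17 of 18 cases, stellate cell and collagen genes in 24 of 29, and endothelial markers in 15 of 20 with 2 lower. Of 11 cholangiocyte markers 4 were higher, 0 lower and 7 not called. Newborn corn oil minus adult corn oil had medians of 2.36 (erythroid), 2.63 (neutrophil), 1.73 (progenitor), 1.57 (lymphocyte), 1.40 (macrophage), 1.45 (stellate) and 0.92 (endothelial). In the same order the medians with CITCO were 2.57, 2.39, 1.38, 1.64, 1.21, 1.34 and 0.67. With CITCO against corn oil in newborns, 12 of 20 endothelial and 6 of 19 neutrophil markers were called lower and 0 higher (background 8.82% and 8.27%). In bulk tissue, a different share of a cell type and a different amount of RNA per cell cannot be told apart. The larger share of transcripts of blood-forming cells, macrophages, stellate cells and endothelium lies in the same newborn libraries as the list differences above. Its part in the lower drug-processing genes was not tested. Hepatocyte markers had 5 of 16 higher and 7 lower (background 49.2% and 22.1%), with a median of -0.00. Near the adult level were 13 of these 16 (75.3% over all genes). Pancreatic markers had 1 gene higher (Amy2a5) and 1 lower (Cela1) of 23, and the Amy2a5 call was lost without CITCO replicate 1 (log2 difference 1.55 instead of 2.71).

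**Figure D4:**
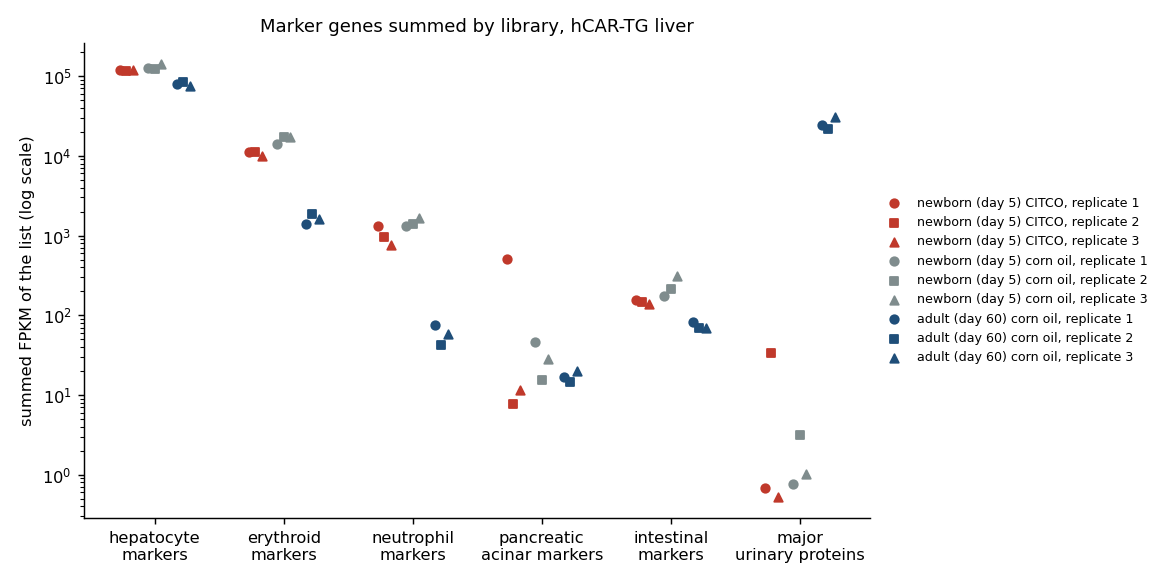
Summed FPKM (log scale) of 6 marker lists in each hCAR-TG library, with the symbol giving the replicate. Erythroid and neutrophil sums are higher in both newborn groups than in adults, CITCO newborn replicate 1 stands apart at 502 for pancreatic acinar markers, and CITCO newborn replicate 2 at 33.9 for major urinary proteins.

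Wild type mice gave the same kind of contrast with mouse CAR and TCPOBOP, so receptor and ligand differ together from the hCAR-TG contrast. The difference between the contrasts, taken over different libraries, was called for 3626 of 12282 genes (29.5%), 12.3% higher and 17.2% lower in hCAR-TG. Of the 45 CAR targets it was called for 39, 38 of them lower in hCAR-TG and 1 higher. For Cyp2b10 the hCAR-TG contrast was 0.95 ± 0.26 log2, and in wild type it was 6.97 ± 0.26, since TCPOBOP newborns averaged 1694 ± 82.4 FPKM and wild type adults given corn oil 12.9 ± 4.16 FPKM (SD, n = 3 each). Both sides of this ratio differ between genotypes. Cyp2c29 was short of the adult in hCAR-TG (-2.57) and past it in wild type (2.78 ± 0.39), with 6436 ± 82.1 FPKM in TCPOBOP newborns and 946 ± 151 FPKM in wild type adults (SD, n = 3 each). Gstm3 likewise differed by -6.41 ± 0.20 log2 between the contrasts (limma adjusted p = 5.24e-15). Cyp1a1, the 1 target higher in hCAR-TG, differed by 0.94 ± 0.08 log2 (limma adjusted p = 5.55e-08), at levels of 0.608 to 2.33 FPKM in the newborns given ligand. Cyp1a2 was near the adult level in both genotypes (-0.05 in hCAR-TG, 0.11 in wild type), with a difference of -0.17 and a 95% interval of -0.52 to 0.19.

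**Figure D5:**
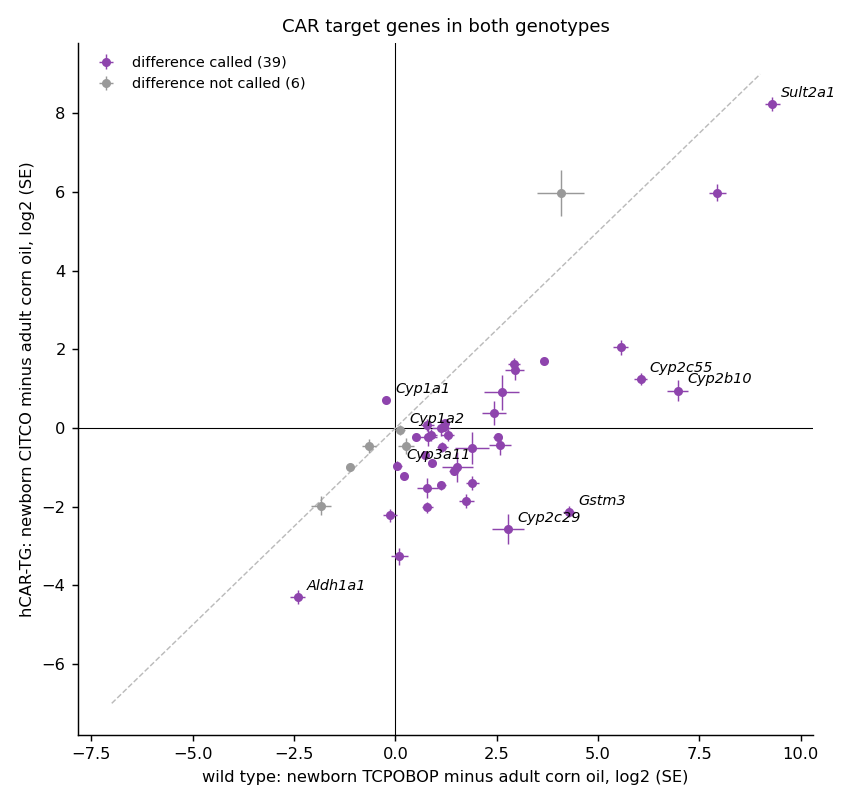
CAR target genes by their log2 difference in hCAR-TG (newborn CITCO minus adult corn oil, vertical axis) and in wild type (newborn TCPOBOP minus adult corn oil, horizontal axis), with SE. Points under the dashed line of equality were lower in the hCAR-TG contrast. The difference was called for 39 of 45 genes, and Cyp1a1 is the called gene above the line.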

How the data were processed

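Each library had a deposited table of FPKM values per gene, made by the authors. Per the labels' protocols, stranded libraries of polyadenylated RNA were made with a TruSeq kit, and mm10 is the build named in the submitters' processing notes. No aligner, quantifier or annotation is named in the sources used here. Each table had 24885 entries of 24342 symbols. Entries of a repeated symbol were summed, 27 date-like entries were kept apart by locus and 5 genes with a failed estimate were left out, leaving 24339. Read counts were not used here, so depth and its precision are unknown. File coordinates count from 0 at the start and are printed from 1.

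Genes reaching 1 FPKM in 3 or more of the 24 libraries (12282) were fitted as log2(FPKM + 1), in which the pseudocount understates changes of low genes, with limma 3.58.1 (R 4.3.3; lmFit, eBayes with trend and robust) in 1 model of 8 groups (residual degrees of freedom 16). P-values are two-sided with Benjamini-Hochberg adjustment over all tested genes. The script was tested on simulated data. Percentages of the adult mean are ratios of mean FPKM.

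The members and gene lists were chosen with earlier results of these data known. Named are Nr1i3, Nr1i2, Cyp2b10, the 10 largest rises and falls, up to 4 called members per list, the 8 CITCO-raised genes per position with the largest response, and the 4 CAR targets with the largest called difference from wild type each way (only 1 was called higher). The text prints part of these, and other named family members were chosen after their values were seen. Alternatives were another scaling, pseudocount and filter, a replicate block, a constant prior, array weights, a fit to only the 6 libraries compared, other thresholds and leaving out libraries. Motifs were counted with Python 3.11.15.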

Additional observations from a re-analysis of the deposited data

Results flagged for a closer look

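Groups of 3 are too small for the search for single outlying samples, so what stands here are differences between the hCAR-TG contrast (newborn CITCO minus adult corn oil) and the wild type contrast (newborn TCPOBOP minus adult corn oil), each tested as an interaction in the limma model. Receptor and ligand differ together between them. The difference was called for 3626 of 12282 genes (29.5%). The CAR targets with the largest difference were Gstm3 at -6.41, Cyp2b10 at -6.02, Cyp2c29 at -5.35 and Cyp2c55 at -4.80 on the log2 scale, all lower in the hCAR-TG contrast. Cyp1a1 differed by 0.94 and was the single CAR target called higher in it. For Cyp2b10 the adults given corn oil differed as well, with 225 ± 16.5 FPKM in hCAR-TG and 12.9 ± 4.16 FPKM in wild type (SD, n = 3 each).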

How the results depend on the processing

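The CITCO-raised genes were chosen anew under each alternative. Of all genes, 3452 were called higher with a filter at 5 FPKM, and 1483 higher and 540 lower when a 2-fold change was also required. Genes near the adult level numbered 8 with a 1.5-fold bound and 734 when every called CITCO rise was taken. Genes past it numbered 49 with a pseudocount of 0.1 and 173 with every rise, and genes short of it 40 and 106. Undecided genes numbered 8 with a pseudocount of 0.1, 9 with the 1.5-fold bound, and 5 without CITCO replicate 1 and newborn corn oil replicate 3, an alternative chosen after seeing the data, under which 19 were near, 24 past and 20 short. Leaving out 1 library at a time gave 5632 to 5855 genes higher, 2482 to 2590 lower, 17 to 29 near, 21 to 27 past, 20 to 27 short and 2 to 7 undecided. Without CITCO replicate 1, 2 or adult replicate 3 the undecided genes numbered 7, 5 and 6. Drug-processing genes were then higher in 43 to 46 cases and lower in 103 to 108, and CAR targets in 10 to 11 and 19 to 23. Rescaling gave 17 near, 19 past, 27 short and 2 undecided. Of the 70 genes, 16 took another position under at least 1 alternative fit, a count that leaves out the 1.5-fold bound. The cause was not tested for any of these. Replicate numbers did not pair the libraries (same-number correlations of 0.0346, -0.0155 and 0.0755), and a replicate block gave 6012 higher, 2691 lower and the same 4 position counts, although Got1 moved to past and Raet1e to near, with Upp2 (0.44) then called. Among values of 175 named genes 14 fell below the threshold under an alternative, 17 rose above it and 0 reversed. The read file number could not be fitted, since each compared group has 1 value of it. FPKM without read counts set the limit: the precision of low genes is unknown.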
